A study of Mus musculus with 9 samples.

Results

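Collagen chain genes encode the polypeptides of which every collagen trimer is built. They were taken here as all genes whose symbol has the form Col, a type number, a and a chain number and for which the array carries a probe. There were 37 such genes with 58 probes. A gene was counted as measured when the tumour signal of at least 1 of its probes was well above background on 3 or more of the 9 arrays, and 31 genes with 43 probes met this, among 26870 probes kept of 41174 on the array. Each measured gene was read from its brightest probe. The 31 comprised all 10 fibrillar chains, 5 of 6 chains of the basement membrane network (type IV), 2 of 3 beaded filament chains (type VI), the anchoring fibril chain Col7a1, 1 of 3 short chain network genes, 6 of 7 FACITs (fibril-associated collagens with interrupted triple helices), all 4 transmembrane collagens and both multiplexins. Col4a3 (well above background on 2 arrays), Col8a2 (on 1 array), Col6a6, Col10a1, Col19a1 and Col26a1 (on 0 arrays) were not measured. Just inside the threshold lay Col12a1 and Col23a1, each on 3 arrays, and Col27a1 on 4. Col17a1 passed on 8 arrays and the other 27 members on all 9.

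The samples were tumours grown from B16-F10, a mouse melanoma cell line, in 3 variants that differ in histamine production. In HDC-A and HDC-S, L-histidine decarboxylase, the enzyme that makes histamine, had been altered. HDC-A cells make and release less histamine, HDC-M cells have unmodified histamine production and HDC-S cells make and release more. Each group comes from 1 line variant, so line and histamine output cannot be told apart, and the strain and age of the host mice are not given in the sources used here. Each group had 6 tumours, whose RNA was pooled in randomly chosen pairs into 3 pools, giving 9 arrays of 2 colours. Every tumour pool was labelled with Cy5 and hybridised against the same Cy3-labelled RNA of HDC-M cells grown in culture. Values are log2 ratios of Cy5 over Cy3, so a positive value is a brighter signal in the tumour than in the culture. No dyes were swapped: a dye effect cancels between tumour groups but not in the comparison with the culture, which also leaves out the spread of the culture itself. Tumours hold host cells as well as melanoma cells, and in such bulk RNA fewer cells of a type and less RNA per cell cannot be told apart.

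Collagens are trimers of alpha chains wound into a triple helix. Fibrillar collagens, above all types I and III, give connective tissue its tensile strength and are made chiefly by fibroblasts, while type IV chains form the sheet under epithelia and around vessels and FACITs decorate the surface of fibrils. In solid tumours collagen is a main component of the stroma.

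The promoter sequences of 3 genes are shown because the results below turn on them: Col1a2 and Col3a1 had the highest ratios of tumour over culture, and Col17a1 differed most between tumour groups. They are the 250 bases before the annotated start in RefSeq (mouse build GRCm38.p6), written 5′ to 3′ on the gene's strand, and capitals mark motifs found on either strand: the CCAAT box, searched as the word CCAAT, the TATA box, searched as the word TATAAA, and the GC box, searched as the word GGGCGG.
Col1a2 promoter, chr6:4505368-4505617, plus strand: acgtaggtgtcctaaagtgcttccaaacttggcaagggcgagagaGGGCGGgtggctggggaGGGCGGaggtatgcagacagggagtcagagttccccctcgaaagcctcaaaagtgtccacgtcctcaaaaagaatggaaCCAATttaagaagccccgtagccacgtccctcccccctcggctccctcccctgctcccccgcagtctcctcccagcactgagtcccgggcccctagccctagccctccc
Col3a1 promoter, chr1:45311288-45311537, plus strand: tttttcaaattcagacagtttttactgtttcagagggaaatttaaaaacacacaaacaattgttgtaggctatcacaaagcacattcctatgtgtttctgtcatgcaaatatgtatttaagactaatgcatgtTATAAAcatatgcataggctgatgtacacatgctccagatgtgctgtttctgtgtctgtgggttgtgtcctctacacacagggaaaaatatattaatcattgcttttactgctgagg
Col17a1 promoter, chr19:47692043-47692292, minus strand: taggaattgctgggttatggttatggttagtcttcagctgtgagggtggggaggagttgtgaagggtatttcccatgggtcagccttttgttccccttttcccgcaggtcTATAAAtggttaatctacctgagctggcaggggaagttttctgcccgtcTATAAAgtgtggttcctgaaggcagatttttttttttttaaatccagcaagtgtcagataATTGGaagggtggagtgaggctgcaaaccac
The Col1a2 window holds 1 CCAAT match and 2 GC box matches, that of Col3a1 holds 1 TATA match, and that of Col17a1 holds 2 TATA matches and 1 CCAAT match on the other strand. Promoters were listed for 25 of the 31 measured members. Of these, 11 held a CCAAT match, 4 a TATA match and 17 a GC box match, where 33.8%, 12.4% and 32.7% of the 32851 promoter windows in the table did. A match is a description of the letters and not a bound site.

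The Hdc gene itself had log2 ratios of 0.15, 0.15 and 0.42 in the HDC-A pools, 0.60, 0.48 and 0.06 in the HDC-M pools and 0.44, 0.33 and 0.61 in the HDC-S pools. These ranges overlap, and no difference between groups passed the limma fit (HDC-S over HDC-A 0.22, adjusted p = 0.463). Of 9 melanocytic markers 7 were measured, and Mlana and Sox10 were not. The Cy5 signal was well above background at 58.0% to 69.7% of probe spots per array. The 2 first replicates of each group were scanned on a first day and the last replicate on a second day, so scan day could be set as a block. Replicate 2 of HDC-A stood apart: it was the highest of the 9 arrays at 21 of the 31 collagen members, against 14.9% of all probes kept, and the values it moves most are given without it as well. No collagen spot was saturated. In the Cy3 channel the collagen signals of the culture were dim, at 0.928 to 3.24 times the median of the negative control spots (median 1.11). The signal lay above the 95th percentile of these spots on every usable array for 15 members, on some arrays for 12 and on no array for Col5a2, Col6a1, Col17a1 and Col25a1.

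The comparison of HDC-M tumours with the culture sets the same line variant grown in mice against itself grown in a dish. Collagen signal was higher in the tumours for 20 of 31 members, where 34.0% of all probes were called higher, and lower for 2, where 23.9% of all probes were called lower. The median over the 31 members was 0.61 on the log2 scale and that over all probes 0.05. The leading genes were the chains of the types I and III fibrils, which by their brightest probes differed from the culture by more than an order of magnitude. Other probes gave far less in HDC-M, with means of 1.23 and 0.09 for Col1a1 and 0.13 for Col3a1 on the log2 scale. In HDC-A tumours 24 members were higher and 0 lower (38.9% and 26.8% of all probes), with a member median of 0.85. Without HDC-A replicate 2 there were 22 higher and 2 lower, Col4a5 and Col12a1. That fit called 15550 of the 26870 probes kept, in either direction. In HDC-S tumours 20 were higher and 3 lower (38.2% and 26.0% of all probes), with a member median of 0.58. Calls are at an adjusted p under 0.05 in limma over all probes, and the 3 comparisons share the culture RNA.

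Among the fibrillar chains, Col3a1, whose homotrimers form thin fibrils beside type I (probe A_51_P515605), gave 4.90, 5.01 and 4.42 in the HDC-M pools. In HDC-A it gave 4.71, 7.00 and 5.03 and in HDC-S 5.00, 5.80 and 3.90. All 9 pools lay far above the culture, and the groups overlapped. In HDC-M tumours its mean was 4.78 (SE 0.43, 95% interval 3.82 to 5.74, limma adjusted p = 1.08e-05), a ratio of 27.4-fold. The culture's signal of Col3a1 exceeded the negative control percentile on 3 of 9 arrays, so the size of this ratio rests on a dim denominator. The 2 chains of type I, the main fibre of skin and bone, followed. Col1a2 gave 4.78, 5.04 and 4.30 in HDC-M, 4.68, 6.32 and 4.56 in HDC-A and 4.42, 5.28 and 4.01 in HDC-S pools. Its HDC-M mean was 4.71 (SE 0.33, limma adjusted p = 2.17e-06), or 26.1-fold. Col1a1 gave 4.09, 4.10 and 3.96 in HDC-M, 5.48 and 3.87 in HDC-A (the spot of replicate 1 was an outlier and left out, so n = 2 there) and 3.86, 4.54 and 3.19 in HDC-S pools. Its HDC-M mean of 4.05 (SE 0.30, limma adjusted p = 6.99e-06) is 16.6-fold. For both type I chains the highest pool was HDC-A replicate 2 and the lowest HDC-S replicate 3, as for Col3a1.

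Type V chains, which start and limit the width of type I fibrils, had smaller ratios. Col5a2 gave 1.27, 1.29 and 0.83 in HDC-M, 0.99, 1.96 and 1.48 in HDC-A and 1.35, 1.18 and 1.12 in HDC-S pools. The culture's signal did not exceed the negative controls. Here and for the 3 other such genes the culture was therefore set to the higher of its own signal and the negative controls' 95th percentile. The mean tumour signal of Col5a2 was then 2.06-fold the culture in HDC-M, 2.56-fold in HDC-A and 2.10-fold in HDC-S. Such ratios allow for the dim culture but not for the spread over pools. Col5a3 gave 1.65, 1.72 and 1.50 in HDC-M, 1.54, 2.95 and 1.51 in HDC-A and 1.62, 2.06 and 1.23 in HDC-S pools. Both genes passed against the culture in every group. Col5a1 ranged from -0.07 in HDC-S replicate 3 to 1.67 in HDC-A replicate 2. Its HDC-A mean was 0.67 (SE 0.27, limma adjusted p = 0.0497), a call that was lost without HDC-A replicate 2 (0.16, limma adjusted p = 0.422) and made in 6 of 18 alternatives. Col2a1, the main chain of cartilage fibrils, passed in all groups, with means of 1.67 in HDC-M, 2.29 in HDC-A and 2.06 in HDC-S. Its partner chains in cartilage had small differences from the culture. Col11a2 was called lower in HDC-M (-0.27, limma adjusted p = 0.0339) and HDC-S (-0.25, limma adjusted p = 0.0391) and not in HDC-A (-0.06). Col11a1 was called higher in HDC-A (0.26, limma adjusted p = 0.00621) and HDC-S (0.17, limma adjusted p = 0.0495) and not in HDC-M (0.09). Of the markers of cartilage and bone 5 of 8 were measured, and Matn1, Comp and Cnmd were not. The mean of these 5 ranged from -0.42 to -0.05 over the pools. In HDC-M 0 of them were called higher and 2 lower (34.0% and 23.9% of all probes). In HDC-A 1 was higher and 3 lower (38.9% and 26.8%), and in HDC-S 2 were higher and 2 lower (38.2% and 26.0%). The part of such cells in the Col2a1 values was not tested.

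The type IV chains differed in how far they stood from the culture. Col4a1 and Col4a2, neighbouring genes transcribed away from each other whose products form the common trimer of basement membranes, were far above the culture. Col4a1 gave 2.46, 2.60 and 2.14 in HDC-M, 2.91, 3.57 and 2.68 in HDC-A and 2.37, 2.56 and 2.30 in HDC-S pools. Its HDC-M mean was 2.40 (SE 0.15, limma adjusted p = 9.44e-07), or 5.28-fold. Col4a2 gave 1.36, 2.06 and 1.20 in HDC-M, 1.67, 2.42 and 1.50 in HDC-A and 1.37, 1.49 and 1.53 in HDC-S pools. Of the chains of the rarer type IV trimers, Col4a4 ranged from 0.33 to 0.55 over the 9 pools and passed in every group. Its other measured probe (A_52_P424594) gave larger values, with means of 1.57 in HDC-M (limma adjusted p = 3.82e-06), 1.61 in HDC-A and 1.63 in HDC-S, close to those of Col4a2. The culture's signal of that probe exceeded the negative control percentile on 0 of 9 arrays, and that of the chosen probe on all 9, so the size of the Col4a4 difference is uncertain. Col4a6 ranged from 0.16 to 0.34 and also passed in every group. Col4a5, its neighbour on the genome, was below the culture in all 9 pools, from -0.35 to -0.05, and was called lower in HDC-M (-0.27, limma adjusted p = 0.00142) and HDC-S (-0.28, limma adjusted p = 0.00111) but not in HDC-A (-0.13, limma adjusted p = 0.0521); HDC-A minus HDC-M was 0.15, with a 95% interval of -0.02 to 0.31.

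The beaded filament chains Col6a1 and Col6a2, which link cells to the fibrillar matrix, were moderately higher. Col6a1 gave 0.86, 0.91 and 0.34 in HDC-M, 1.00, 1.34 and 0.81 in HDC-A and 0.66, 0.87 and 1.15 in HDC-S pools. With the culture set as for Col5a2, the means of Col6a1 were 1.52-fold, 1.90-fold and 1.49-fold the culture in these groups. Col6a2 gave 0.57, 0.62 and 0.20 in HDC-M, 0.49, 0.96 and 0.30 in HDC-A and 0.18, 0.41 and 0.24 in HDC-S pools. It passed in HDC-M and HDC-A, and in HDC-S it did not (0.28, limma adjusted p = 0.0671). Col8a1, a short chain collagen of vessel walls and of the membrane behind the cornea, was 5.37-fold above the culture in HDC-M (2.64, 2.60 and 2.03). It ranged from 2.17 to 3.27 in HDC-A and from 2.29 to 2.73 in HDC-S pools. Col7a1, whose trimers anchor the epidermal basement membrane to the dermis, gave 1.37, 0.68 and 0.49 in HDC-M, 0.44, 1.47 and 0.11 in HDC-A and 0.45, 0.95 and 1.14 in HDC-S pools. It passed in every group, and in HDC-A (0.67, limma adjusted p = 0.0359) not without HDC-A replicate 2 (0.28, limma adjusted p = 0.291).

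The multiplexins are the collagens attached to basement membranes that carry heparan or chondroitin sulfate. Col18a1, the source of the fragment endostatin, gave 3.50, 3.40 and 2.58 in HDC-M, 3.37, 4.26 and 3.34 in HDC-A and 3.44, 3.18 and 3.01 in HDC-S pools. Its HDC-M mean was 3.16 (SE 0.21, limma adjusted p = 1.34e-06), or 8.93-fold. Col15a1 ranged from 0.37 to 1.21 and passed in all groups, while its other probe gave -0.16 in HDC-M (limma adjusted p = 0.0175). Of the FACITs, only Col16a1 and Col14a1 were called higher than the culture in every group. Col16a1, found in skin and smooth muscle, had HDC-M values of 2.20, 2.33 and 2.21 (mean 2.25, SE 0.10, limma adjusted p = 1.94e-07). Col14a1, which binds type I fibrils, ranged from 0.53 to 1.62. Col9a1, Col9a2 and Col9a3, the 3 chains of the type IX trimer on cartilage fibrils, lay between -0.18 and 0.85. Col9a1 was called higher in HDC-A (0.62, limma adjusted p = 0.00036) and not in HDC-M (0.10) or HDC-S (0.08). Col12a1 lay between -0.19 and 0.00 and was called lower in HDC-S (-0.13, limma adjusted p = 0.0337), as in 12 of 17 alternatives. Its tumour signal was well above background on 1 of 3 HDC-S arrays. Its culture signal exceeded the negative control percentile on 5 of 9 arrays. Of the transmembrane collagens, Col13a1 ranged from 0.32 to 1.14, Col25a1 from 0.04 to 0.43 and Col23a1 from -0.12 to 0.02. Col25a1 was called higher in HDC-A (limma adjusted p = 0.0109) and HDC-S (limma adjusted p = 0.00159). With the culture set as for Col5a2, however, its means were only 1.02-fold the culture in HDC-A, 1.00-fold in HDC-M and 1.04-fold in HDC-S. Col17a1, the hemidesmosome collagen of basal keratinocytes (probe A_51_P358344), had a log2 mean of 2.77 in HDC-M (95% interval 1.92 to 3.61). With the culture set as for Col5a2, the Col17a1 means were 6.79-fold the culture in HDC-M and 5.05-fold in HDC-A. In HDC-S its mean of 0.93 did not pass (limma adjusted p = 0.0529).

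**Figure D1:**
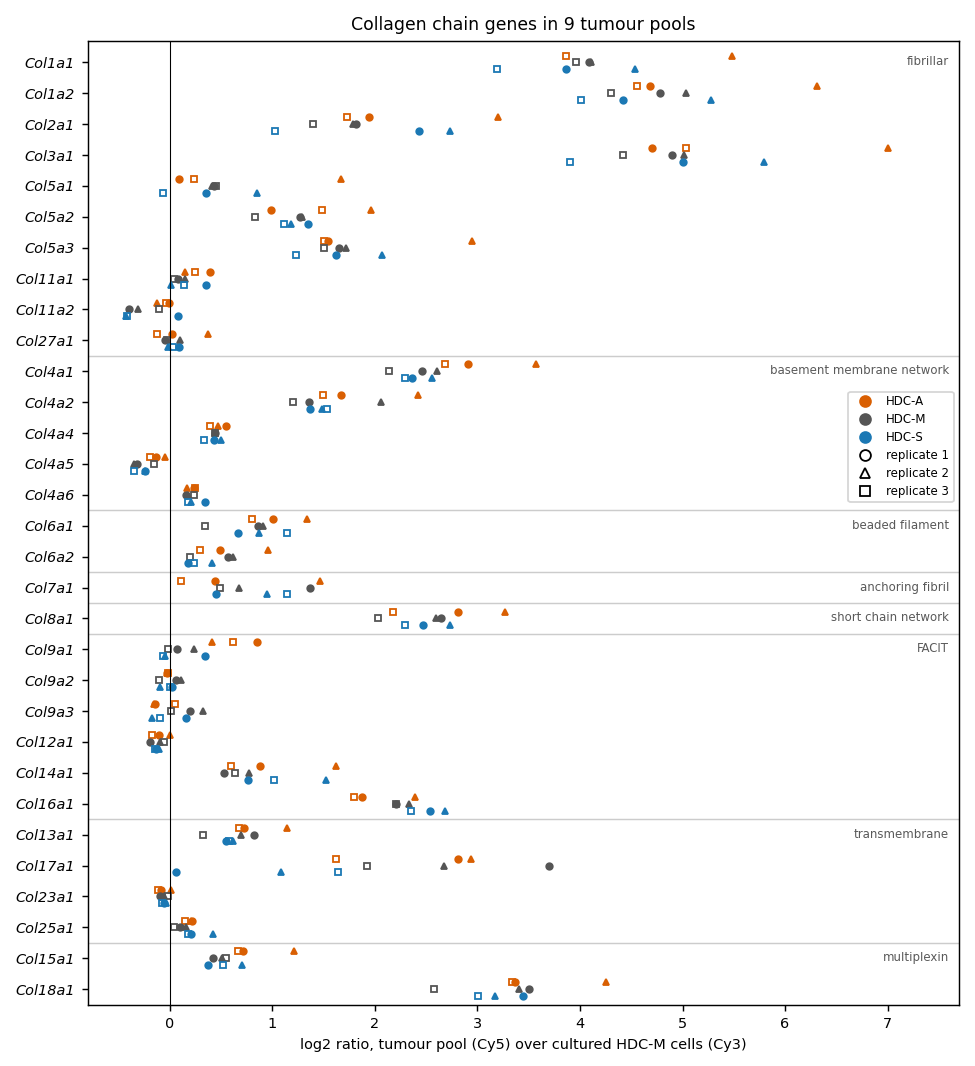
Log2 ratio of each tumour pool over the cultured HDC-M cells (x axis) for the 31 measured collagen chain genes, grouped by structural class; each point is 1 pool, coloured by tumour group and shaped by replicate. Col1a2 and Col3a1 lie between 3.90 and 7.00 in every pool, and HDC-A replicate 2 (orange triangle) is the highest pool at 21 of the 31 genes.

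To see whether enhanced histamine production goes with a change in collagen expression, HDC-S pools were set against HDC-M pools. No member passed (0 of 31, where 0.681% of all probes did), and 16 members were higher and 15 lower, with a median difference of 0.01 for the members and 0.01 for all probes. At an unadjusted p under 0.05 in limma there were 2 members, Col17a1 and Col25a1 (14.5% of all probes). The pools of the groups did not overlap at 3 members, Col25a1 and Col16a1 higher and Col17a1 lower (22.3% of all probes). Both counts are smaller shares than those of all probes.

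Col17a1 had the largest difference of any member. It gave 3.70, 2.67 and 1.92 in the HDC-M pools and 0.06, 1.09 and 1.64 in the HDC-S pools. In the HDC-A pools it gave 2.81, 2.93 and 1.62. Every HDC-S pool was below every HDC-M pool, and the HDC-S and HDC-A pools overlapped. HDC-S minus HDC-M was -1.84 (SE 0.53, 95% interval -3.03 to -0.64, limma adjusted p = 0.157), with an exact two-sided permutation p of 0.1, the smallest that 10 splits of 3 against 3 allow. On the first scan day alone the difference was -2.61 and on the second, with 1 array per group, -0.28; without HDC-M replicate 1 it was -1.37 and without HDC-S replicate 1 it was -1.40. The tumour signal of Col17a1 was well above background on 2 of the 3 HDC-S arrays and on all arrays of the other groups.

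Markers of keratinocytes are given beside Col17a1. All 8 markers of this list were measured, and their mean in each pool was taken over the usable spots. It was 2.79, 1.99 and 1.84 in the HDC-M pools. In the HDC-A pools it was 1.98, 2.26 and 1.25 and in the HDC-S pools 0.08, 1.23 and 1.14. Thus the pool with the lowest and the pool with the highest mean of the list were also the lowest and the highest for Col17a1. Krt14 had 1 usable HDC-M spot, so the HDC-M means are not all over the same genes and their ranking is not like for like. All 8 were lower in HDC-S than in HDC-M (median -1.54) and none passed; loricrin (Lor), a protein of the cornified layer, differed by -2.73 (SE 0.72, limma adjusted p = 0.128) and the basal keratin Krt14 by -3.00 (SE 1.09, limma adjusted p = 0.27, with 1 usable HDC-M spot). Dsg1a and Ivl were at the level of the culture, with means of 0.02 and -0.02 in HDC-M. The part of keratinocytes in the Col17a1 difference was not tested.

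Of the other members, Col25a1, a brain-expressed membrane collagen, gave 0.21, 0.43 and 0.17 in HDC-S against 0.10, 0.16 and 0.04 in HDC-M pools, a difference of 0.17 (SE 0.07, limma adjusted p = 0.343). Col16a1 gave 2.54, 2.69 and 2.35 in HDC-S against 2.20, 2.33 and 2.21 in HDC-M, a difference of 0.28 (95% interval -0.05 to 0.61). After scaling between arrays the Col16a1 difference was -0.41. Other members at the high end were Col14a1 (0.46, 95% interval -0.12 to 1.03), Col2a1 (0.39, -0.66 to 1.45) and Col6a1 (0.19, -0.23 to 0.61). At the low end were Col9a3 (-0.22, 95% interval -0.46 to 0.03), Col6a2 (-0.19, -0.57 to 0.19), Col1a1 (-0.19, -1.16 to 0.78) and Col1a2 (-0.14, -1.19 to 0.92). For Col3a1 the difference was 0.12 with a 95% interval of -1.24 to 1.48, an interval that reaches past a 2-fold difference in both directions. For Col7a1 it was -0.00 (95% interval -0.79 to 0.79). Among the narrowest intervals were those of Col4a4 (-0.02, 95% interval -0.16 to 0.12) and Col23a1 (-0.00, -0.13 to 0.13). Col23a1 was well above background on 1 HDC-M array and 0 HDC-S arrays, and the processing draws ratios of such dim probes towards 0. Its narrow interval is therefore no measure of an equal level. Scaling between arrays moved the member median to -0.15, with 9 of 31 higher.

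**Figure D2:**
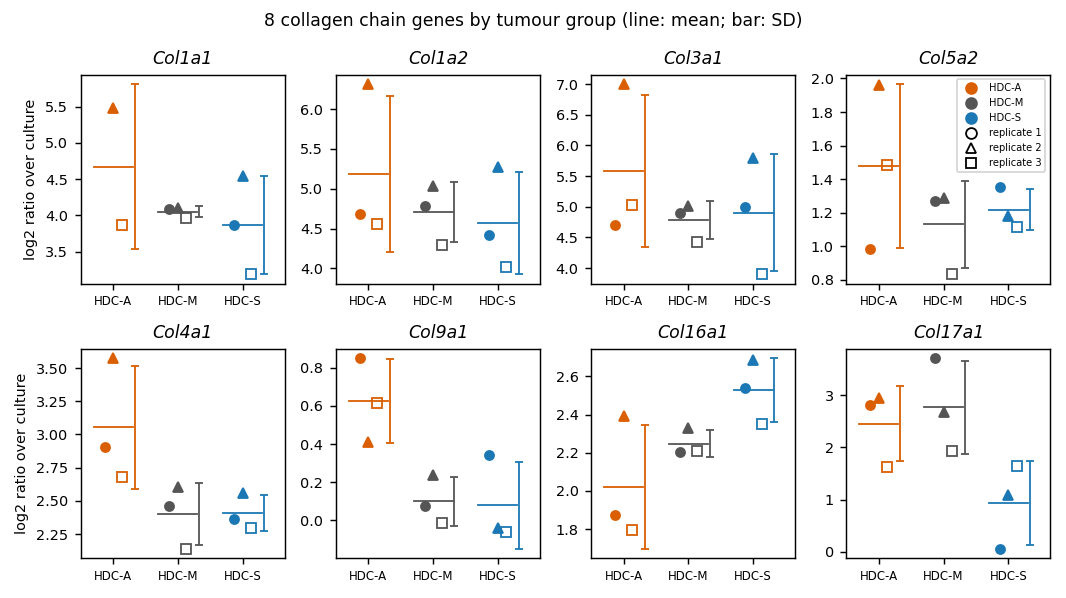
Log2 ratio over the cultured HDC-M cells (y axis, a separate range per panel) for 8 collagen chain genes in the 3 tumour groups; points are pools, horizontal lines group means and vertical bars SD over the pools of the group (n = 3; for Col1a1 in HDC-A n = 2). Col17a1 is lower in each HDC-S pool than in each HDC-M pool, and Col9a1 and Col4a1 are higher in each HDC-A pool than in each pool of the other groups; after scaling between arrays the HDC-A minus HDC-M difference of Col4a1 was -0.16.

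For diminished histamine production, HDC-A pools were set against HDC-M pools in the same way. No member passed (0 of 31, where 1.44% of all probes did), and at an unadjusted p under 0.05 in limma there were 4 (15.5% of all probes): Col9a1, Col4a1 and Col15a1 higher and Col9a3 lower. The groups did not overlap at 4 members, Col9a1, Col4a1, Col15a1 and Col11a1, each higher in HDC-A (20.9% of all probes). In sign, 25 of 31 members were higher in HDC-A and the median was 0.23, where that of all probes was 0.01. All 10 fibrillar chains were higher, by 0.08 to 0.80 (median 0.36), and so were all 5 type IV chains, by 0.03 to 0.65. The least of the 10, Col27a1, was well above background on 3 HDC-A, 1 HDC-M and 0 HDC-S arrays. It was thus kept mainly through HDC-A, and its sign adds no support. The signs of the members rested on HDC-A replicate 2: without it 18 of 31 members and 5 of 10 fibrillar chains were higher, with medians of 0.05 and 0.02. The 5 type IV chains were higher without it too. After scaling between arrays 16 of 31 members, 6 of 10 fibrillar chains and 1 of 5 type IV chains were higher, and the member median was 0.00.

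Col9a1 had the lowest adjusted p of the members. It gave 0.85, 0.41 and 0.61 in HDC-A and 0.08, 0.24 and -0.01 in HDC-M pools, so the lowest HDC-A pool was above the highest HDC-M pool. The difference was 0.53 (SE 0.14, 95% interval 0.22 to 0.83, limma adjusted p = 0.0952; exact two-sided permutation p = 0.1). It was 0.47 on the first scan day and 0.63 on the second, 0.63 without HDC-A replicate 2, and 0.40 to 0.94 over 23 alternatives, none of which passed. Col9a2 and Col9a3, the chains that assemble with it, had differences of the other sign. Col9a2 differed by -0.05 (95% interval -0.20 to 0.10) and Col9a3 by -0.26 (-0.51 to -0.01, limma adjusted p = 0.292).

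Col4a1 was higher by 0.65 (SE 0.21, 95% interval 0.18 to 1.12, limma adjusted p = 0.166), each HDC-A pool being above each HDC-M pool. It was 0.39 without HDC-A replicate 2 and -0.16 after scaling between arrays. For Col4a2 the difference was 0.32 (95% interval -0.26 to 0.90), which was 0.04 without HDC-A replicate 2, and the groups overlapped. Col15a1 gave 0.72, 1.21 and 0.67 in HDC-A and 0.42, 0.51 and 0.55 in HDC-M pools, a difference of 0.38 (SE 0.14, limma adjusted p = 0.231), which was 0.20 without HDC-A replicate 2. Among the fibrillar chains the difference was 0.80 for Col3a1 (95% interval -0.56 to 2.16), 0.62 for Col1a1 (-0.46 to 1.71), 0.62 for Col2a1 (-0.43 to 1.67) and 0.48 for Col1a2 (-0.57 to 1.53). Without HDC-A replicate 2 these were 0.09 for Col3a1, -0.18 for Col1a1, 0.17 for Col2a1 and -0.09 for Col1a2. After scaling between arrays they were -0.82, -0.86, 0.07 and -1.07. Col2a1 alone of the 4 was positive in all 23 alternatives (0.07 to 0.90), and none called it. At the low end were Col17a1 (-0.31, 95% interval -1.50 to 0.88), Col16a1 (-0.23, -0.56 to 0.11) and Col7a1 (-0.17, -0.96 to 0.61).

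HDC-A replicate 2 also had the highest means of several stromal marker lists. Over Col1a2, Col3a1 and the 3 type V chains its mean log2 ratio was 3.98, where the other 8 pools ranged from 2.04 to 3.04. The mean of the 10 fibroblast markers, all measured, was 1.43 in this pool and 0.73 to 1.31 in the others, and that of the 9 pericyte and smooth muscle markers, all measured, was 1.16 against 0.44 to 0.69. The 7 measured skeletal muscle markers of 8 had a mean of 2.95 in it and 0.53 to 2.08 elsewhere. In the fibroblast list Clec3b lay at the culture's level in HDC-M (-0.09). The 10 endothelial, 9 macrophage and 7 measured adipocyte markers were highest in this pool as well. The part of these cells in the collagen values was not tested.

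**Figure D3:**
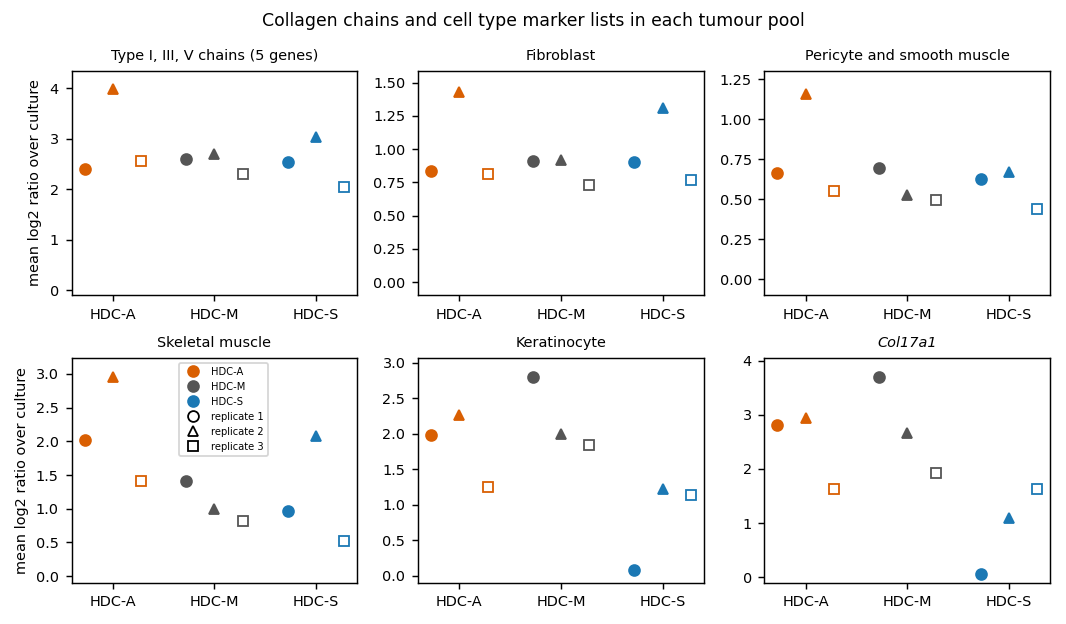
Mean log2 ratio over the cultured HDC-M cells (y axis) of Col1a2, Col3a1 and the 3 type V chains, of 4 cell type marker lists and of Col17a1 alone, 1 point per pool. Means are over usable spots, and the keratinocyte means of the HDC-M pools are not all over the same genes. HDC-A replicate 2 is highest for the fibrillar chains (3.98), fibroblast (1.43), pericyte (1.16) and skeletal muscle markers (2.95), and HDC-S replicate 1 is lowest for the keratinocyte markers (0.08) and Col17a1 (0.06).

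Last, the lines with the most and the least histamine output were compared, HDC-S against HDC-A, on the same arrays as above. No member passed in the main fit, which pairs no pools (0 of 31, where 5.26% of all probes did). With the replicate number as a block 3 did, Col9a1 (limma adjusted p = 0.048), Col16a1 (limma adjusted p = 0.0357) and Col4a1 (limma adjusted p = 0.033). That fit called 1126 of the 26870 probes kept. At an unadjusted p under 0.05 in limma there were 5 (19.4% of all probes): Col9a1, Col4a1, Col17a1 and Col15a1 lower and Col16a1 higher in HDC-S. The groups did not overlap at 4 members, Col9a1, Col4a1, Col13a1 and Col4a5, each lower in HDC-S (24.4% of all probes). By sign 23 of 31 members and all 10 fibrillar chains were lower in HDC-S, with a member median of -0.23 where that of all probes was 0.00. Of these chains Col27a1 was kept mainly through HDC-A arrays, so its sign adds no support here either. Without HDC-A replicate 2 the median was -0.00 and 16 members were lower, 5 of the 10 fibrillar chains among them.

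Col9a1, at 0.34, -0.04 and -0.06 in the HDC-S pools, was below each HDC-A pool. HDC-S minus HDC-A was -0.54 (SE 0.14, 95% interval -0.85 to -0.24, limma adjusted p = 0.0542). It was -0.48 on the first scan day and -0.68 on the second. Of 23 alternatives 6 called it, among them the replicate block and the fits without HDC-A replicate 2 (-0.65, limma adjusted p = 0.0401) and without HDC-S replicate 1 (-0.68, limma adjusted p = 0.0372), and the adjusted p ranged from 0.0372 to 0.829. Col16a1 was the member most above HDC-A, by 0.51 (SE 0.15, 95% interval 0.17 to 0.84, limma adjusted p = 0.0859). Its HDC-A values were 1.88, 2.39 and 1.80, so that replicate 2 of HDC-A lay within the HDC-S range of 2.35 to 2.69. Without that pool the difference was 0.69 and passed (limma adjusted p = 0.0137). It was higher in HDC-S on both scan days, by 0.48 and 0.56. Col4a1 was lower by 0.65 on the log2 scale in HDC-S, with a difference of -0.65 (95% interval -1.12 to -0.18, limma adjusted p = 0.115; with the replicate block 0.033), and -0.39 without HDC-A replicate 2.

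The Col17a1 difference between HDC-S and HDC-A was -1.53 (95% interval -2.72 to -0.33, limma adjusted p = 0.144). It was -2.30 on the first scan day and 0.02 on the second, and -1.29 without HDC-A replicate 2. The keratinocyte markers were lower in HDC-S at 7 of 8, with a median of -1.35 and none called; their part in this difference was not tested either. Col15a1 differed by -0.34 (95% interval -0.65 to -0.02, limma adjusted p = 0.224), and by -0.16 without HDC-A replicate 2. For Col4a5 the pools did not overlap (-0.24, -0.24 and -0.35 in HDC-S, -0.13, -0.05 and -0.20 in HDC-A), but the difference was -0.15 with a 95% interval of -0.31 to 0.01. The fibrillar chains at the low end were Col1a1 (-0.81, 95% interval -1.89 to 0.28), Col3a1 (-0.68, -2.04 to 0.68) and Col1a2 (-0.61, -1.67 to 0.44), and without HDC-A replicate 2 they were -0.00, 0.03 and -0.05. At the high end beside Col16a1 were Col7a1 (0.17, -0.61 to 0.96), Col25a1 (0.08, -0.09 to 0.25), Col14a1 (0.07, -0.50 to 0.64) and Col9a3 (0.04, -0.20 to 0.29). Without HDC-A replicate 2 Col7a1 was at 0.57 and Col14a1 at 0.36.

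**Figure D4:**
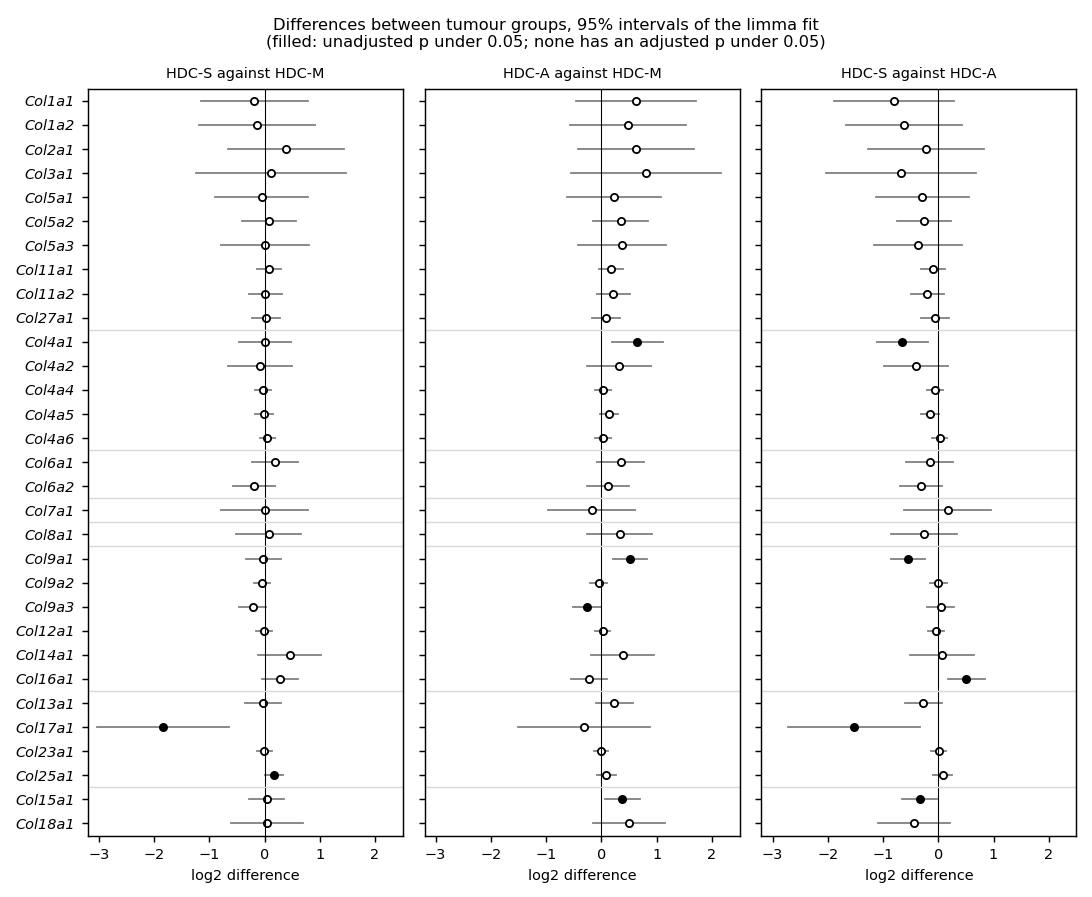
Difference in log2 ratio between tumour groups (x axis) for the 31 measured collagen chain genes, with 95% intervals of the limma fit; filled points have an unadjusted p under 0.05 and no point has an adjusted p under 0.05. Intervals are widest for Col3a1, Col17a1, Col1a2, Col2a1 and Col1a1.

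Over the 9 pools, 14 members spanned more than 1 on the log2 scale. The pool medians over the members were 0.72, 1.34 and 0.61 in HDC-A, 0.57, 0.68 and 0.45 in HDC-M and 0.43, 0.86 and 0.58 in HDC-S. HDC-M replicate 3 and HDC-S replicate 3, both of the second scan day, were each the lowest pool at 9 members. Within the first scan day the member medians of the differences were 0.24 for HDC-A over HDC-M, 0.02 for HDC-S over HDC-M and -0.26 for HDC-S over HDC-A. Between the single arrays of the second scan day, compared after seeing the data, they were 0.08, -0.03 and -0.09. With scan day as a block no member passed in any of the 3 comparisons. Of all probes that fit called 189 for HDC-A against HDC-M, 85 for HDC-S against HDC-M and 1156 for HDC-S against HDC-A.

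Genes that act on collagen chains were read from 4 lists. Of 17 genes that modify and fold the chains, 15 were measured; in HDC-M tumours against the culture 9 were higher and 3 lower, where 34.0% of all probes were higher and 23.9% lower. Fkbp10, a chaperone of procollagen, was higher by 1.26 (SE 0.11, limma adjusted p = 8.99e-06) and the lysyl hydroxylase Plod2 by 0.75, while the prolyl hydroxylase subunits P4ha2 (-1.50, SE 0.20, limma adjusted p = 0.000146) and P4ha1 (-0.60) were lower. Of 13 genes for secretion and trimming of procollagen, 9 were measured, 3 higher and 4 lower, so the share that was higher is near that of all probes. Adamts2, which removes the amino propeptide, was higher by 2.22 and Pcolce, which enhances the removal of the carboxy propeptide, by 2.11, while Mia2, a cargo receptor of the secretory pathway, was lower (-1.65). All 16 genes for cross-linking and fibril binding were measured, 10 higher and 1 lower. The fibril-binding proteoglycans Dcn and Lum were higher by 3.25 and 2.05, and Loxl4, a lysyl oxidase, was lower (-0.11, limma adjusted p = 0.0395). Of 10 collagen receptors 5 were measured, 3 higher and 1 lower, with Lair1, an inhibitory receptor of leukocytes, highest at 0.90 and Ddr2, a receptor tyrosine kinase for fibrillar collagen, lowest at -0.28.

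Between tumour groups no gene of these 4 lists passed. The lowest adjusted p was that of P4hb, the shared subunit of prolyl hydroxylase, with HDC-A minus HDC-M at 0.46 (SE 0.10, limma adjusted p = 0.055). Dcn gave 4.03, 3.30 and 2.44 in HDC-M, 3.09, 5.25 and 3.16 in HDC-A and 3.61, 4.38 and 2.08 in HDC-S pools, again with HDC-A replicate 2 highest and HDC-S replicate 3 lowest. In HDC-S against HDC-M the genes at the high end of the cross-linking list were Fn1 (0.77, SE 0.23, limma adjusted p = 0.167) and Loxl2 (0.57, SE 0.17, limma adjusted p = 0.171). Of the melanocytic markers only Tyr, tyrosinase, passed, and only between HDC-S and HDC-A (-0.48, SE 0.08, limma adjusted p = 0.0121).

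Other probes of the same genes did not always give the same size. For 11 members 12 further probes were measured, of which 10 had the sign of the chosen probe in HDC-M against the culture and 11 a smaller difference. The exception was Col4a4, at 1.57 against 0.44 for the chosen probe. The second probe of Col3a1 gave 0.13 against the culture where the chosen probe gave 4.78, the others of Col1a1 gave 1.23 and 0.09 against 4.05, and that of Col17a1 gave 0.36 against 2.77. Between groups the further probes had the sign of the chosen ones at 6 of 12 for HDC-S against HDC-M, at 10 for HDC-A against HDC-M and at 10 for HDC-S against HDC-A. For HDC-S minus HDC-M the second Col17a1 probe gave -0.42 where the chosen one gave -1.84.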

How the data were processed

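RNA of 9 tumour pools (Cy5) and of 1 culture (Cy3) was hybridised to 2-colour Agilent arrays, per the labels. The authors deposited the scanner output of Agilent Feature Extraction 8.5.1.1, per the file headers: spot intensity and local background intensity per channel, flags, and a log10 ratio of Cy5 over Cy3. The deposited value table repeats this log10 ratio (largest difference 0). The genome build behind the array's design is not given in the sources used here; promoter windows are those of RefSeq's GRCm38.p6. The number of arrays limits the precision.

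From the deposited intensity values, mean signals were corrected with normexp (offset 50, which draws the ratios of dim probes towards 0), normalised within each array by loess with control and outlier spots at weight 0, and averaged over spots of a probe (R 4.3.3, limma 3.58.1). Probes with Cy5 well above background on 3 of 9 arrays were kept (26870) and 14304 left out. Names were brought up to date through RefSeq accessions for 22072 probes and otherwise through other accessions (142), descriptions (1309) or the gene name in the file (75); 17576 probes had no current name. Groups were compared with lmFit and eBayes over all 9 arrays in 1 model, with Benjamini-Hochberg adjustment over all probes kept at 0.05; single genes also by an exact permutation test of 3 against 3. The procedure was tested on simulated data with independent noise per array and with changes only in probes outside the most variable ones. That test does not cover effects shared by the probes of 1 pool, or the most variable members. Labels call the pools biological replicates, and each pool holds 2 tumours. They give every group the same replicate numbers without saying what these share. Over probes, deviations of same-numbered pools correlated at 0.11, 0.55 and 0.13 for HDC-A with HDC-S. For the pairs with HDC-M they correlated from -0.19 to 0.15, and differently numbered pools correlated from -0.32 to 0.28. The main fit paired no pools. For HDC-S against HDC-A the fit with the replicate number as a block, which pairs same-numbered pools, is given beside it.

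The members, the gene lists and the tests were chosen with earlier results of these data known. Named are the chains of types I and III to VI, members called between groups, the 5 highest and 5 lowest members per comparison, and list genes that were called or among the 2 highest or lowest. The other members are given by class for completeness. Alternatives were other background corrections, normalisations, filters and probe choices, array weights, blocks, single scan days and leaving out each array.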

Additional observations from a re-analysis of the deposited data

Results flagged for a closer look

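There were 2 further probes, read only to check the chosen ones, that passed between tumour groups where no chosen probe did. Probe A_52_P518827 of Col4a1 gave 1.34, 1.67 and 1.30 in HDC-A, 0.81, 0.89 and 0.67 in HDC-M and 0.88, 1.18 and 0.90 in HDC-S pools. HDC-A minus HDC-M was 0.64 (SE 0.12, limma adjusted p = 0.0378), close to the 0.65 of the chosen Col4a1 probe, whose adjusted p was 0.166. Probe A_52_P216436 of Col2a1 gave 1.07, 1.25 and 0.81 in HDC-A, 0.62, 0.60 and 0.36 in HDC-M and 0.64, 0.49 and 0.33 in HDC-S pools. HDC-S minus HDC-A was -0.56 (SE 0.13, limma adjusted p = 0.0351), where the chosen Col2a1 probe gave -0.23 (limma adjusted p = 0.866). Which probe of each gene follows its transcript more closely was not tested.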

How the results depend on the processing

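In HDC-S against HDC-M and in HDC-A against HDC-M, 0 members passed in each of 23 alternatives. In HDC-S against HDC-A, 1 member passed with no background correction (Col9a1), with the scanner software's log ratios (Col4a5) and with a stricter filter (Col9a1, 27 members tested), and 2 passed with array weights (Col9a1, Col16a1). In that order these fits called 1710, 392, 1532 and 1463 probes over the whole array. With single arrays dropped in turn there were 0 to 2: 2 without HDC-A replicate 2 (Col9a1, Col16a1, with 1023 probes called) and 1 without HDC-S replicate 1 (Col9a1, with 648 probes called). The replicate block gave 3 (Col9a1, Col16a1, Col4a1), with 1126 probes called, and changed no other member's call between groups. The member median of HDC-M against the culture, 0.61, was 1.46 with the scanner software's log ratios, which add no offset, and 0.96 under median centring, which moved the median of all probes from 0.05 to 0.27; Col11a2 turned there to 0.14. With single arrays dropped in turn it was 0.53 to 0.65. Members called against the culture numbered 19 to 25 in HDC-M, 21 to 25 in HDC-A and 19 to 25 in HDC-S tumours over the alternatives. Probes called over the whole array varied more: 183 for HDC-S against HDC-M (4 without HDC-M replicate 2 to 719 with array weights), 387 for HDC-A against HDC-M (2 under median centring to 648 with array weights) and 1412 for HDC-S against HDC-A (4 under median centring to 1710 with no background correction). The sign of the difference changed in at least 1 alternative at 25 members for HDC-S against HDC-M, 19 for HDC-A against HDC-M and 15 for HDC-S against HDC-A. The second scan day alone was added after seeing the data. Ratios of members whose culture signal lay at the negative controls are limited by the Cy3 background, and 3 pools per group limit all intervals.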

Other observations

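Some collagen probes carry no symbol and are named in the files only in words, so they are not members. Of 14 such probes 2 were measured. The probe described as the alpha 3 chain of type VI collagen (A_52_P479262) gave 3.12, 4.35 and 2.88 in HDC-A, 3.39, 3.49 and 2.43 in HDC-M and 2.87, 3.52 and 2.73 in HDC-S pools. In HDC-M tumours it was 3.10 above the culture on the log2 scale (SE 0.29, limma adjusted p = 1.35e-05), and it was again highest in HDC-A replicate 2. Between groups it was not called (HDC-A minus HDC-M 0.35, limma adjusted p = 0.748). A probe described as the alpha 2 chain of type VI was 0.36 above the culture in HDC-M tumours (SE 0.08, limma adjusted p = 0.0032), beside 0.46 for the chosen probe of Col6a2.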
